A study of Homo sapiens with 8 samples.

Results

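LNCaP-only METTL3 peaks are the peaks of the LNCaP list that share no base, on the same chromosome and strand, with any peak of the PC3 list. They numbered 2059 of the 2616 LNCaP peaks (78.7%, which the rule itself fixes), chosen by the deposited coordinates of the peaks in both lists, and no minimum fold or p-value was asked of them. METTL3 is the catalytic subunit of the nuclear methyltransferase complex that places N6-methyladenosine (m6A) on messenger RNA, mostly within a short motif around a GGAC core and often near stop codons and in long internal exons. The complex also acts on primary microRNA transcripts. RNA immunoprecipitation with an antibody to METTL3 recovers the transcripts the protein is bound to and does not read the methyl mark itself.

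The material came from 2 established human prostate cancer lines grown in RPMI medium. LNCaP, an androgen-sensitive line, was kept in 20% fetal bovine serum, and PC3, an androgen-independent line, in 10%. Each of the 8 samples belongs to 1 of 4 groups, the anti-METTL3 immunoprecipitate (IP, made from 80% of the lysate) or the input (10% of the lysate) of one line, with 2 replicates in each group, and the labels do not say whether replicates were separate cultures. A further 10% of lysate went to a rabbit IgG control, which was not analysed here. The deposited result is 1 peak list for each line, 2616 peaks in LNCaP and 1033 in PC3, in hg38 coordinates. Every fold, p-value and FDR below is the authors' own value for that peak, and "peak p" always means this deposited p-value. The lists hold no values per sample, so no error between replicates can be given, the depth is unknown, and all comparisons are descriptions of these lists without a test. The fold is read as IP over input from the design, because the header names no denominator.

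The LNCaP-only peaks were divided by the protein-coding gene that held them whole. On 133 genes that also carried a PC3 peak elsewhere lay 388 of them, and on 854 genes without any PC3 peak lay 1556. The remaining 115 had no single gene. PC3 peaks were given to genes by the same rule. A PC3 peak that no single gene held whole marked no gene, so its gene could count as without a PC3 peak. A peak missing from the PC3 list is not a measured absence in PC3, since that list admitted no p above 1.59e-05 while LNCaP-only peaks had p-values up to 0.0170. RNA abundance is not in the lists either, so METTL3 binding of a transcript and presence of that transcript cannot be told apart.

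Because primary microRNAs are known substrates of METTL3, the RefSeq hairpins (GRCh38.p14) lying whole inside a LNCaP-only peak on its strand were read out. There were 27 such hairpins in 27 peaks (1.31% of the LNCaP-only peaks), against 3 of the 557 LNCaP peaks that overlapped PC3 (0.539%) and 4 of the 1033 PC3 peaks (0.387%). Per length of sequence, LNCaP-only peaks came last. They held 0.772 hairpins per Mb, against 1.96 per Mb of overlapping LNCaP peaks and 1.10 per Mb of PC3 peaks. The overlapping and PC3 values rest on 4 and 5 hairpins, and in each set MIR98 and MIRLET7F2 shared 1 peak on HUWE1. Of the 27 peaks, 21 were longer than 10000 bp. Among peaks of at most 10000 bp the shares lay close together, 6 of 1656 LNCaP-only (0.362%), 2 of 502 overlapping (0.398%) and 3 of 922 PC3 peaks (0.325%). The 6 hairpins in shorter peaks are the ones whose place in the peak says most, and 5 of them are printed 5′ to 3′ with GGAC in capitals where it occurs.
MIR6769A, chr16:4671318-4671390, plus strand: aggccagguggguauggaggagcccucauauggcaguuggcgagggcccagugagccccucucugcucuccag
MIR3940, chr19:6416410-6416511, minus strand: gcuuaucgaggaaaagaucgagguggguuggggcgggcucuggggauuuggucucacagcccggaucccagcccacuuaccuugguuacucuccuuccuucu
MIR4635, chr5:1062896-1062974, minus strand: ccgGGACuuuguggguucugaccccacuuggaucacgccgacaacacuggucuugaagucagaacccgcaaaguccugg
MIR4640, chr6:30890883-30890972, plus strand: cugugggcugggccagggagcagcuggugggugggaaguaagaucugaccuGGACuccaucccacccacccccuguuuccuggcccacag
MIR4498, chr12:120155434-120155499, minus strand: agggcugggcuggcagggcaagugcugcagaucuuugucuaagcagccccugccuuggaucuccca

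The hairpins themselves were not measured, and the values belong to the peak around each. MIR6769A lay in a 7307 bp peak on MGRN1, a ubiquitin ligase gene, with a fold of 20.5 (peak p 1.56e-10). MIR3940 lay in a 1261 bp peak on KHSRP with a fold of 8.94, MIR4635 in a 4930 bp peak on SLC12A7 with a fold of 8.01, and MIR4640 in a 1643 bp peak on DDR1 with a fold of 3.31. KHSRP encodes a splicing factor that also takes part in microRNA processing, SLC12A7 a potassium-chloride cotransporter and DDR1 a collagen receptor kinase. MIR4498 lay in the shortest of these peaks, 337 bp on GCN1, with a fold of 6.38. The sixth hairpin, MIR1181, lay at the upstream end of a 7475 bp peak with a fold of 3.84 that ran past the annotated span of CDC37. GGAC, searched on the RNA strand, occurred in 11 of the 27 hairpins (40.7%; 25.9% on the other strand) and in 426 of all 1560 hairpins of the table (27.3%; 26.1% on the other strand). A match to these letters is a description and not a methylated site.

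The mature products of the 6 hairpins are shown with the seed, bases 2 to 8, in capitals, since the seed is what a microRNA pairs with its targets through. No 2 of the 9 shared a seed.
miR-6769a-5p: aGGUGGGUauggaggagcccu
miR-6769a-3p: gAGCCCCUcucugcucuccag
miR-1181: cCGUCGCCgccacccgagccg
miR-3940-5p: gUGGGUUGgggcgggcucug
miR-3940-3p: cAGCCCGGaucccagcccacuu
miR-4635: uCUUGAAGucagaacccgcaa
miR-4640-5p: uGGGCCAGggagcagcugguggg
miR-4640-3p: cACCCCCUguuuccuggcccac
miR-4498: uGGGCUGGcagggcaagugcug

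At the other end of the size range, 8 LNCaP-only peaks of 51 to 126 bp lay wholly inside the window from 250 bases before to 50 bases after a RefSeq gene start. The windows were those of ZRANB2, U2AF2, SH3BP4, USP19, SLC4A4, SEPTIN9, TLE3 and CTNNBL1. By the assignment rule the peaks at ZRANB2, U2AF2, USP19 and CTNNBL1 had no single gene. For 3 of the 8 peaks the sequence on the peak's strand holds GGAC, and 30 bases around it are printed with the motif in capitals. In all 3 the printed GGAC lies before the gene start that defines its window. At SH3BP4 and SEPTIN9 that start is an internal one, since the annotated span of the gene holds the peak whole. The span of SEPTIN9 begins at 77281499.
SH3BP4, chr2:234978686-234978715, plus strand: ccttaagagGGACaactgaaacagagacaa
USP19, chr3:49120844-49120873, minus strand: ggcggcggcgccgGGACgggggaggggcgc
SEPTIN9, chr17:77450607-77450636, plus strand: ctccctcctctggGGACccccttgcttgtg

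The folds of these peaks were 6.01 at SH3BP4, an endocytic adaptor, 4.81 at USP19, a deubiquitinase, and 3.74 at SEPTIN9, a cytoskeletal GTPase. GGAC was common in such sequence. It occurred in 66.3% of all 35116 windows of 300 bases (66.1% on the other strand) and in the first 50 bases of 18.9% of them (17.6% on the other strand). Touching a start window by at least 1 bp was more frequent among the peaks without a single gene, 25 of 115 (21.7%), than among those on genes without a PC3 peak, 81 of 1556 (5.21%), or with one elsewhere, 8 of 388 (2.06%). The gene assignment itself bears on this order, because a peak that reaches before the annotated span of its gene is not held whole by it. For all LNCaP-only peaks the count was 114 (5.54%), for the overlapping LNCaP peaks 16 (2.87%) and for the PC3 list 33 (3.19%).

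In median the LNCaP-only peaks had a smaller fold and a larger p than the overlapping ones. Their median fold was 5.16 (95% order-statistic interval 5.06 to 5.28 over 2059 peaks, counting error only), with quartiles of 4.25 and 7.17 and a range of 1.25 to 236.6. Peaks on genes with a PC3 peak elsewhere had a median of 5.52 (5.18 to 5.86), peaks on genes without one 5.12 (5.02 to 5.25), and overlapping LNCaP peaks 5.64 (5.36 to 5.98). The interval of the first of these groups overlaps both others. Such intervals, here and below, treat peaks as independent although many share a gene, and they hold no spread between replicates. The median p of these groups was 0.00133, 0.00175 and 0.000487 in the same order. The overlapping peaks were picked through the PC3 list, which admitted no p above 1.59e-05.

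**Figure D1:**
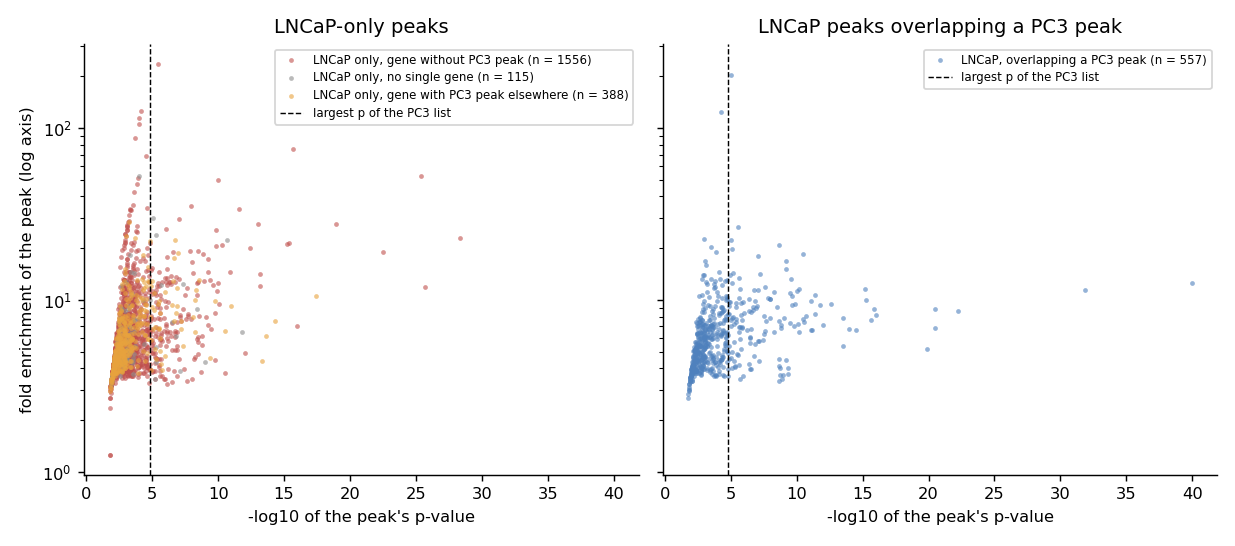
Fold enrichment (log axis) against −log10 of the p-value, 1 point per LNCaP peak, with LNCaP-only peaks by class of gene on the left, peaks overlapping PC3 on the right, and a dashed line at the largest p of the PC3 list. Right of the line lie 244 of the 2059 LNCaP-only and 145 of the 557 overlapping peaks.

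With p no larger than the largest PC3 p there were 244 LNCaP-only peaks (11.9%), against 389 of all LNCaP peaks (14.9%) and 145 of the overlapping ones (26.0%). That share was 12.6% (49 peaks) on genes with a PC3 peak elsewhere and 11.6% (180 peaks) on genes without one. The 180 strong peaks on genes without a PC3 peak lay on 146 genes, had a median length of 3094 bp, and 68 of them had a fold of at least 10. The 49 strong peaks on genes with a PC3 peak lay on 34 genes, had a median length of 778 bp, and 14 had a fold of at least 10. Together such peaks touched 180 of 19970 protein-coding genes (0.901%). When the LNCaP peaks were ordered by p and cut into 4 groups of 654, 65.9% of the group with the smallest p-values were LNCaP-only, then 80.0%, 85.0% and 83.9%.

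Genes without any PC3 peak held most of the peaks. Of the 854 genes (4.28% of the 19970 protein-coding genes), 500 carried a single LNCaP-only peak, 314 carried 2 to 4, and 40 carried 5 or more. The 5 smallest p-values among them belonged to PTPRN2, SPON2, RILPL1, MAEA and PDE9A. PTPRN2, a receptor-type phosphatase of secretory vesicles, carried a 22937 bp peak at chr7:158110836-158133772 with a fold of 22.8 (peak p 4.53e-29), the smallest p of any LNCaP-only peak, and 3 other peaks. The peak given to SPON2 alone, which encodes a secreted matrix protein, was only 76 bp long, at chr4:1204992-1205067, with a fold of 11.9 (peak p 2.14e-26). Further LNCaP-only peaks of 21935 bp (fold 6.95) and 466 bp (fold 3.40) lay inside its span. Another coding gene also held these, so they were given to no gene. RILPL1, a Rab effector gene, had a peak of 24886 bp with a fold of 52.5 (peak p 3.84e-26). MAEA, a ubiquitin ligase subunit, had a fold of 19.0 over 9247 bp (peak p 2.91e-23), and PDE9A, a cyclic GMP phosphodiesterase, 27.6 over 45185 bp (peak p 1.20e-19). By the length of its strongest peak SPON2 thus stood apart from the other 4, whose strongest peaks were 9247 to 45185 bp long.

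The 5 largest folds at an FDR of at most 0.05, a limit that every LNCaP-only peak meets, were on COL7A1, IL9R, RTEL1, ACIN1 and PIAS4. COL7A1 encodes the collagen of anchoring fibrils. Its 6 peaks had folds of 47.1, 5.23, 236.6, 68.8, 114.9 and 4.48 from the gene's start to its end, so 4 of 6 were above 40 and the rest near the list's median. The peak with a fold of 236.6 was 148 bp long, at chr3:48572736-48572883, with a peak p of 3.63e-06. RTEL1, a telomere helicase gene, had 1 peak of 135 bp with a fold of 104.7 (peak p 0.000102). IL9R, a cytokine receptor gene, had a fold of 125.3 (peak p 6.95e-05); it lies in a region shared by the X and Y chromosomes, so its reads have more than 1 possible origin. ACIN1, a splicing-associated gene, had 1 peak with a fold of 87.7 among 7 whose median was 4.77, all in the last of 3 equal parts of the gene. PIAS4, a SUMO ligase gene, had a fold of 75.1 (peak p 2.22e-16) and the smallest p of the 5 genes. On genes without a PC3 peak, high fold and small p therefore picked different genes: no gene was in both groups of 5. Among genes with a PC3 peak elsewhere, TNKS1BP1 was in both such groups.

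By number of peaks, FASN came first with 14, followed by IGF2R with 13, PTPRF with 11, and PLXNB2 and BDP1 with 9 each. FASN encodes fatty acid synthase, the enzyme that makes palmitate, and is a known androgen-responsive gene. Its first 2 peaks from the start of the gene had folds of 4.17 and 7.18, the next 8 had folds from 10.7 to 18.6, and the last 4 had 8.02, 6.99, 4.83 and 4.53. The fold was thus highest in the middle of the gene and lowest at both ends. The highest peak, 18.6, lay at chr17:82088185-82090379 (peak p 1.34e-09), the smallest p was 5.77e-10, and 4 of the 14 peaks reached the p of the PC3 list. Peaks began 9.58% into the gene and ended at 90.9% of it.

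IGF2R, the receptor that clears insulin-like growth factor 2 and sorts lysosomal enzymes, had 13 peaks with folds from 3.59 to 7.74, none in the first of 3 parts of the gene. PTPRF, a receptor phosphatase at cell contacts, had 11 with folds from 3.21 to 8.38, 8 of them in the last part. PLXNB2, a semaphorin receptor, had 9 with folds from 3.8 to 11.3, in the middle and last parts. BDP1, a subunit of the RNA polymerase III initiation factor TFIIIB, had 9 with folds from 3.74 to 9.24 and none in the last part. BDP1 was the only one of the 5 genes with no peak in the last part of its span.

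**Figure D2:**
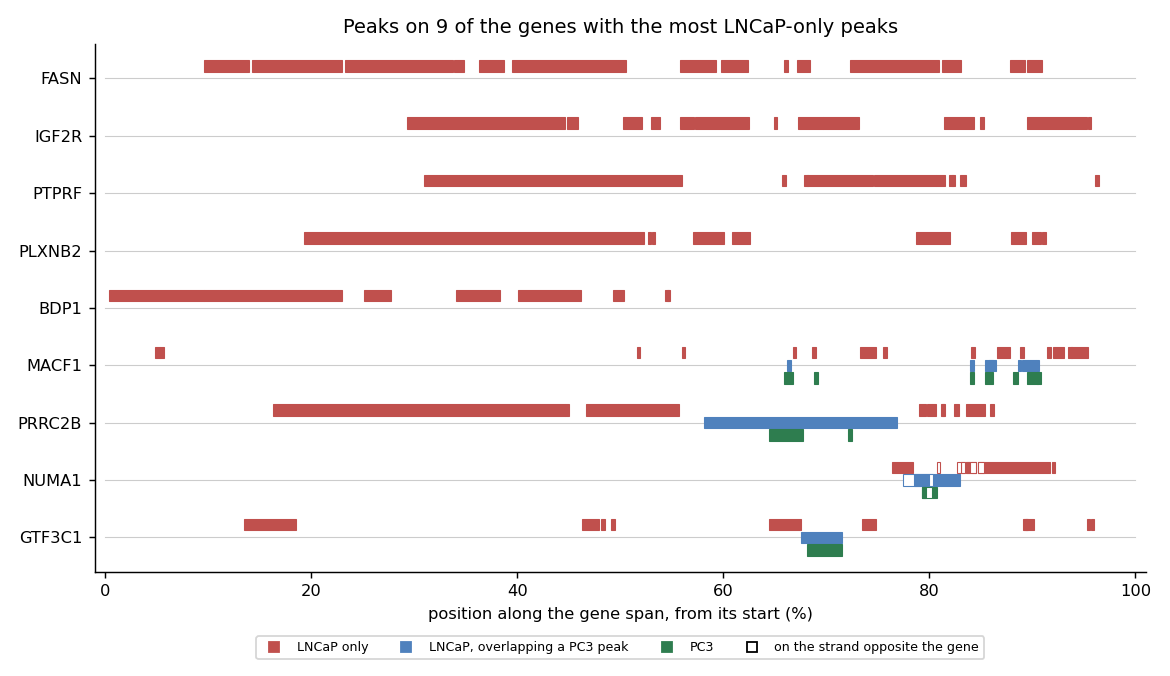
Peaks along 9 of the genes with the most LNCaP-only peaks, 5 without a PC3 peak (top) and 4 with one (bottom), as percent of the gene span from its start; bars mark LNCaP-only (red), overlapping LNCaP (blue) and PC3 peaks (green), open where they lie on the opposite strand, and bars under 0.35% of the span are widened to it. FASN, IGF2R, PTPRF, PLXNB2 and BDP1 hold red bars only, and on NUMA1 5 of the 11 bars for LNCaP-only peaks are open.

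On the 133 genes with a PC3 peak elsewhere, the LNCaP list added peaks to genes that PC3 also marked. PC3 peaks lay on 357 coding genes in all (1.79% of 19970). The 133 genes carried 392 PC3 peaks, 265 of which met a LNCaP peak, 292 overlapping LNCaP peaks, and 388 LNCaP-only ones. A single LNCaP-only peak was present on 53 of them, 2 to 4 on 56, and 5 or more on 24. The nearest PC3 peak on the same strand was a median of 5688.5 bp away (quartiles 989.25 and 15371 bp, 364 peaks). It was within 1000 bp for 92 peaks (25.3%) and over 10000 bp away for 134 (36.8%). For 24 peaks the PC3 peak of the gene lay on the other strand only. PC3 peaks were downstream of the LNCaP-only peak in 199 cases (54.7%) and upstream in 165 (45.3%).

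The rule has an edge at 1 shared base. Just inside it, with gaps of 24 bp, were peaks on RNF40 (fold 5.62, PC3 neighbour 3.64), LAMA3 (15.1, neighbour 3.95), MACF1 (7.04, neighbour 8.04) and PLEC (3.74, neighbour 5.92), taking 1 peak per gene. A gap of 49 bp was next and was shared by 9 peaks on 9 genes, of which CLSTN1 (9.21, neighbour 3.77) had the smallest p. Folds of LNCaP and PC3 peaks come from separate lists. Just outside it, sharing 1 bp with a PC3 peak, were LNCaP peaks on DNM2 (fold 7.48), APLP2 (4.02), RRBP1 (4.63), EEF2 (10.5) and COL6A2 (6.38). Only 5 LNCaP-only peaks (1.37% of the 364) were within 25 bp of a PC3 peak, and 17 of all LNCaP-only peaks (0.826%) lay within 25 bp of a LNCaP peak that overlapped PC3.

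The 4 smallest p-values in this class were on NUMA1, TNKS1BP1, DSP and EIF3A. NUMA1 encodes a protein that tethers microtubules at the spindle pole. Its strongest LNCaP-only peak, 5472 bp at chr11:72009291-72014762, had a fold of 10.6 (peak p 4.13e-18), downstream of PC3 peaks at 72017815 to 72018986. Of its 11 LNCaP-only peaks, 5 lay on the plus strand although the gene is on the minus strand, with folds from 6.74 to 11.5, and the other 6 had folds from 5.62 to 10.6. Peaks of both strands were interleaved at the same place.

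DSP encodes desmoplakin, which anchors intermediate filaments at desmosomes. Its 4 LNCaP-only peaks had folds of 5.64, 3.99, 6.12 and 4.36 from start to end of the gene. The third of these was 51 bp long, at chr6:7571872-7571922, with a peak p of 2.20e-14, while the 6 PC3 peaks lay between 7579349 and 7583046 with folds from 4.65 to 7.78. TNKS1BP1, which encodes a tankyrase-binding protein, had peaks with folds of 7.58 (peak p 4.50e-15) and 21.9 on either side of the stretch shared with PC3. EIF3A, a subunit of a translation initiation factor, had folds of 4.43 (peak p 4.71e-14) and 3.93, both upstream of its PC3 peaks. On TNKS1BP1, DSP and EIF3A the LNCaP-only peak with the smallest p thus lay upstream of the PC3 peaks, and on NUMA1 downstream of them.

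MACF1, a giant linker of actin and microtubules, had the most LNCaP-only peaks of any gene, 15, with folds from 3.08 to 12.8, beside 8 overlapping LNCaP and 9 PC3 peaks. Of the 15, 11 fell in the last part of the gene, and all 9 PC3 peaks began at or beyond 65.9% of its span. PRRC2B, a gene tied to translation, had 12 (folds 3.79 to 22.2) and GTF3C1, a subunit of the polymerase III factor TFIIIC, had 11 (folds 3.59 to 11). None of GTF3C1's 11 peaks had a p within the range of the PC3 list.

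By median (5.52 against 5.12) and upper quartile (7.54 against 7.09), folds in this class were slightly above those on genes without a PC3 peak. The largest folds in this class were smaller than the largest on those genes, which held 1556 peaks against 388 here. They were 28.3 on CEP250, a centrosome linker gene, 23.6 on ROBO1, an axon guidance receptor gene, 22.8 on KMT2D, a histone H3 lysine methyltransferase gene, 22.2 on PRRC2B and 21.9 on TNKS1BP1. CEP250 is counted here through a PC3 peak on the other strand, so its 10 LNCaP-only peaks have no PC3 peak on their own strand. On ROBO1 the LNCaP-only peaks lay 383548 bp or more from the nearest of 5 PC3 peaks.

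On 110 of the 133 genes some other LNCaP peak overlapped PC3, and on 23 no LNCaP peak did. On MUC6, a secreted mucin gene, the LNCaP-only peak had a fold of 13.1 (peak p 2.98e-09) and the PC3 peak, 3637 bp away, a fold of 7.89. Its neighbour MUC5AC had 1 LNCaP-only peak with a fold of 3.92 (peak p 0.00950), 10364 bp from the nearest of 8 PC3 peaks with folds up to 26.5. SIN3A, a corepressor scaffold gene, had a LNCaP-only peak with a fold of 12.3 and PC3 peaks with a fold up to 12.4, 10866 bp apart. ADAR, the gene of an RNA-editing enzyme, had 2 LNCaP-only peaks with folds of 4.70 and 5.97 and 3 PC3 peaks with folds up to 7.18. These 4 genes were chosen after their values were seen.

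The genomic length of a peak includes introns. The median length of LNCaP-only peaks was 929 bp (95% interval 794 to 1082), close to 881 bp for the overlapping peaks and 922 bp for the PC3 list, but the classes diverged. It was 432.5 bp on genes with a PC3 peak elsewhere and 1195.5 bp on genes without one. The genes, each counted once, had median spans of 62186 and 68779.5 bp. Whether gene span bears on the difference in peak length was not tested. Peaks of 51 bp, the shortest length in the list, made up 17.3% and 12.8% of these classes and 7.72% of the overlapping peaks. Peaks over 10000 bp made up 5.93% and 22.1%, and 9.87% of the overlapping peaks.

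**Figure D3:**
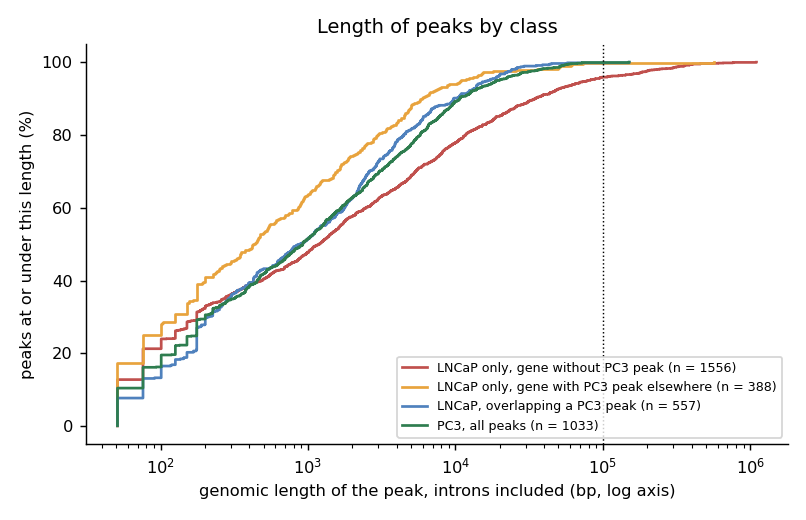
Cumulative percent of peaks (vertical axis) at or under a genomic length in bp (horizontal log axis), 1 line per class of LNCaP peak and 1 for the PC3 list, with a dotted line at 100000 bp. The line for genes with a PC3 peak elsewhere lies to the left, with a median of 432.5 bp, and the line for genes without one to the right at long lengths, with 4.11% of peaks beyond the dotted line.

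Of the 77 LNCaP peaks longer than 100000 bp (2.94% of the list), 76 were LNCaP-only, and 64 of those lay on genes without a PC3 peak. They made up 63.5% of the summed length of all LNCaP-only peaks, 35 Mb. The 65 with a single gene lay on 59 genes, 58 of them without a PC3 peak, whose median span was 579959 bp, and a peak covered a median of 43.5% of its gene. The longest, 1102459 bp at chr3:75937514-77039972, lay on ROBO2, an axon guidance receptor gene, with a fold of 12.6 (peak p 0.000135). Among peaks with a single gene, next came LRRTM4, a synaptic adhesion gene (767927 bp, fold 8.65), DLGAP2, a postsynaptic scaffold gene (763588 bp, fold 15.5), NALF1 (655102 bp, fold 5.55) and DPP10 (602603 bp, fold 7.94), the last 2 being genes of ion channel accessory proteins. The median fold of the 76 was 5.97 and the range 2.69 to 42.3, and 10 of the 76 had a p within the range of the PC3 list. That median is not below the 5.16 of all LNCaP-only peaks. Whether such a span is 1 bound stretch or several joined by the peak caller was not tested.

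Along the gene, each span was cut into 3 equal parts following the strand of the peak. The last part held the midpoint of 855 of the 1944 LNCaP-only peaks with a gene (44.0%, 95% Wilson interval 41.8 to 46.2%, counting error only), against 45.8% of all 2486 such LNCaP peaks. It held 54.1% (49.1 to 59.0%) of peaks on genes with a PC3 peak elsewhere and 41.5% (39.0 to 43.9%) on genes without one. Overlapping LNCaP peaks were at 52.4% (48.2 to 56.6%) and the PC3 list at 56.3%. In the first part lay 15.2%, 23.1%, 15.5% and 14.8% in the same order. By midpoint, LNCaP-only peaks on genes that PC3 also marked thus had a profile near that of the overlapping peaks, and those on other genes were spread more evenly. A peak that covers much of its gene cannot have its midpoint near either end, and peaks over 10000 bp made up 5.93% and 22.1% of these classes. For all LNCaP-only peaks the share in the last part was 49.8% by the downstream end of the peak. It was 45.2% without peaks over 100000 bp. Whether peak length bears on the contrast between classes was not tested.

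**Figure D4:**
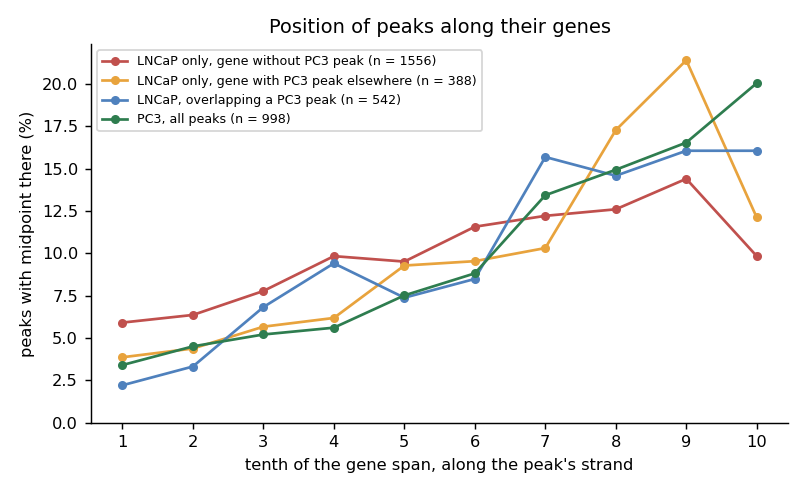
Percent of peaks (vertical axis) with their midpoint in each of 10 equal parts of the gene span (horizontal axis, 1 at the upstream end), 1 line per class of LNCaP peak and 1 for the PC3 list. LNCaP-only peaks on genes with a PC3 peak elsewhere reach 21.4% in part 9 and drop to 12.1% in part 10, and the PC3 list is highest in part 10 at 20.0%.

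In the last of 10 parts the curves separated: 12.1% of LNCaP-only peaks on genes with a PC3 peak and 9.83% on genes without one fell there, against 16.1% of overlapping LNCaP peaks and 20.0% of PC3 peaks. Among the 1609 peaks on genes whose strand was known, 42 (2.61%) lay on the strand opposite to the gene, 3.92% on genes with a PC3 peak and 2.27% on the others. Whether these come from antisense transcripts was not tested.

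Gene lists chosen for these cell lines and for METTL3 biology were set against the background of 987 protein-coding genes with a LNCaP-only peak (4.94% of 19970). This background is a low one for most lists, because long genes carried peaks more often: 575 of 6258 genes over 50000 bp (9.19%) and 3.0% of the 13712 shorter ones. The lists' median gene spans ran from 35504 to 159889 bp. No list is therefore read as particular to LNCaP-only peaks.

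The androgen response and luminal list, which marks LNCaP by its cell type, had 9 of 24 genes with a LNCaP-only peak (37.5%) and none with a PC3 peak. Over all coding genes 1.79% carried a PC3 peak, and 854 of the 987 genes with a LNCaP-only peak (86.5%) carried none, so few or no PC3 genes in a list of this size is near the background. FOLH1, the prostate-specific membrane antigen gene, had the smallest p of the list (fold 3.8, peak p 2.10e-09), followed by PMEPA1, an androgen-induced gene (3 peaks, up to 7.53, peak p 6.88e-08). ZBTB16, a transcriptional repressor gene, had 3 peaks (10.6, 9.44 and 3.88) and CDH1, the E-cadherin gene, 3 peaks with folds up to 10.9. HERC3 had 3 peaks with folds up to 6.93, SLC45A3 a fold of 5.54, KRT8 4.33 and TMPRSS2 3.29. Of these, only FOLH1 and PMEPA1 had a peak with a p within the range of the PC3 list. To 15 genes of the list, KLK3 among them, no LNCaP-only peak was assigned. KRT18 is one of these, and a 51 bp LNCaP-only peak with a fold of 3.50 lay within both KRT8 and KRT18, so it was given to neither. The PC3 basal and mesenchymal list had no LNCaP-only peak on its 14 genes and a PC3 peak on 1, counts too small to be set against the shares over all coding genes. Among 16 nuclear receptor coregulators, GATA2, NCOR1 and ARID1A had one, with folds of at most 5.14, while 6 had a PC3 peak.

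Growth factor, PI3K and mTOR signalling had 6 of 17 genes with a LNCaP-only peak (35.3%), none of them with a PC3 peak, beside 86.5% without one over all genes with a LNCaP-only peak. Its receptor members were IGF2R, INSR (2 peaks, 4.28 and 5.30), EGFR (4.56), ERBB2 (2 peaks, up to 4.71) and ERBB3, whose 6 peaks had folds of 9.17, 5.33, 3.87, 4.61, 12.2 and 4.97 along the gene. RPTOR, the scaffold of mTOR complex 1, had 3 peaks with folds from 7.11 to 12. The only PC3 gene of this list was MTOR. In fatty acid and sterol metabolism 4 of 15 genes had a LNCaP-only peak (26.7%). They were FASN, ACACA, which makes malonyl-CoA for FASN (3 peaks, 4.77 to 6.59), and the lipid transcription factors SREBF1 (4.71) and SREBF2 (3.45). ACLY, which supplies cytosolic acetyl-CoA, was the only one with a PC3 peak.

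**Figure D5:**
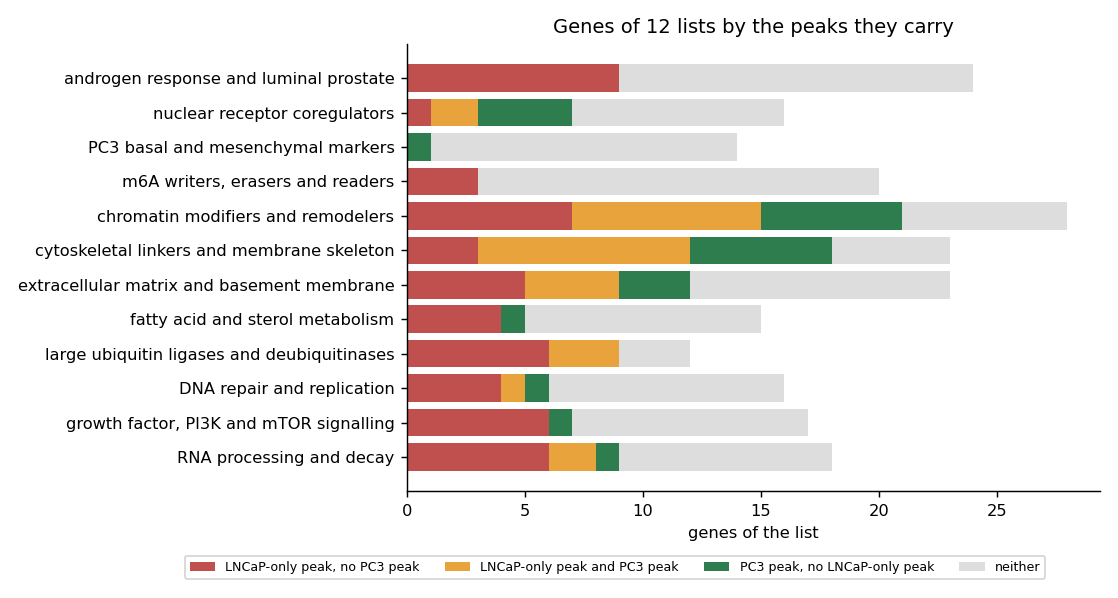
Number of genes (horizontal axis) of each of 12 lists (vertical axis) that carry a LNCaP-only peak and no PC3 peak, both, a PC3 peak and no LNCaP-only peak, or neither. The androgen response and luminal list has 9 genes of the first kind and none with a PC3 peak, and cytoskeletal linkers have 9 genes with both.

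Lists of large structural and regulatory genes differed in how many of their genes with a LNCaP-only peak PC3 marked as well. Over all coding genes, 133 of the 987 genes with a LNCaP-only peak also carried a PC3 peak. A PC3 peak lay on 1.79% of all coding genes and on 4.18% of those over 100000 bp. Among cytoskeletal linkers and membrane skeleton genes 12 of 23 (52.2%) had one, 9 of these with a PC3 peak too, and 15 had a PC3 peak. EPPK1, an epithelial plakin gene without a PC3 peak, had 5 peaks with folds up to 19.3 (smallest p 2.44e-10), and UTRN, a dystrophin relative, 10 with folds from 4.16 to 11.5. Chromatin modifiers and remodelers had 15 of 28 (53.6%), 8 with a PC3 peak too, and 14 had a PC3 peak. Among the histone H3 lysine 4 methyltransferases, KMT2A (up to 10.7), KMT2C (up to 17.6) and SETD1B (up to 11.8) had no PC3 peak, and KMT2B (12.1) and KMT2D did. Large ubiquitin ligases and deubiquitinases had the highest share, 9 of 12 (75%), of which 6 had no PC3 peak and 3 had one. HERC2 (8 peaks, up to 26.9) and MYCBP2 (8 peaks, up to 7.93) were without a PC3 peak, and RNF213 (8 peaks, up to 11.1) had one. The ubiquitin list also has the largest median gene span, 159889 bp.

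Extracellular matrix and basement membrane genes had 9 of 23 (39.1%). Beside COL7A1, LAMB2 (3 peaks, up to 13, peak p 1.29e-07), COL4A5 (2 peaks, up to 10.6), COL5A1 (8.27) and LAMA5 (6.35) had no PC3 peak, and FN1, the fibronectin gene, had 9 LNCaP-only, 4 overlapping and 4 PC3 peaks. RNA processing and decay genes had 8 of 18 (44.4%). PRPF8, the core spliceosome gene, had 7 peaks with folds from 3.10 to 14.3 beside 1 PC3 peak, and SMG1, a kinase of nonsense-mediated decay, 3 with folds up to 14.7 and no PC3 peak. DROSHA, the nuclease that cuts primary microRNAs, had 2 peaks with folds of 4.39 and 4.41. DNA repair and replication genes had 5 of 16 (31.2%), led in number by PRKDC, a DNA-damage kinase gene, with 8 peaks and folds up to 14.0.

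Of 20 m6A writers, erasers and readers, 3 had a LNCaP-only peak (15.0%) and none a PC3 peak. ZC3H13, which encodes a regulatory partner of METTL3, had a fold of 4.84 (peak p 0.00280), and HNRNPA2B1, a nuclear RNA-binding protein proposed as a reader, 3.86 in a 51 bp peak (peak p 3.16e-05). The peak on FTO, a demethylase gene, had a fold of 6.76 over 18614 bp on the strand opposite to the gene. METTL3 itself had no LNCaP-only peak, and none of the 3 peaks was at or under the largest PC3 p.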

How the data were processed

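RIP-seq of METTL3 and input in LNCaP and PC3 was summarised by the authors as 1 peak list per line. Reads were processed with fastp and STAR 2.5.3a on hg38, with bedtools and deepTools also listed, per the submitters' processing notes; peak caller, filters and the pooling of replicates are not given in the sources used here. The deposited fold is a linear ratio per peak, per the file headers. The deposited p-value and FDR are per peak, and the FDR equals a Benjamini-Hochberg adjustment over the listed peaks. The deposited score, its negative log2, was not used. The deposited length is the genomic span in bp. No column of the lists was left unmapped.

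Peaks were LNCaP-only when they shared no bp with a PC3 peak on the same strand. A peak was given to a gene where exactly 1 RefSeq protein-coding gene (GRCh38.p14, chromosomes 1 to 22 and X) held it whole, on either strand. Gene strand, start windows and microRNAs came from RefSeq tables; positions followed the peak's strand. Overlap and assignment code was tested on simulated peaks. Computation used Python 3.11.15, pandas 2.3.3, numpy 2.4.6, scipy 1.17.1 and matplotlib 3.10.9.

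Named genes are, per class, the 5 with the smallest p, the 5 with the largest fold at FDR of at most 0.05 and the 5 with the most peaks, together with the 5 closest pairs and members of 12 lists; the longest peaks, the hairpins and start-window peaks, the peaks just outside the rule and the genes with no shared place were added. The members and lists were chosen with earlier results of these data known. The planned search for the full m6A motif needed a genome and was not run, and GGAC in the RefSeq sequences took its place. Alternatives were other overlap rules, p, fold and FDR limits, gene assignments and position measures. Some items that the rule would name are not reported here.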

Additional observations from a re-analysis of the deposited data

How the results depend on the processing

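No paired analysis was possible because each list gives 1 value per peak and none per replicate, and no replicate could be left out for the same reason. Of 47 alternatives to the 6 summary values, 33 kept the value within its interval (the number of peaks, within 1.5 times the reported count) and 14 moved it further, and the cause was not tested unless the limit itself sets it. Limiting the LNCaP list to the largest PC3 p left 244 LNCaP-only peaks of 2059, lowered the LNCaP-only share from 78.7% to 62.7%, and raised the median fold from 5.16 to 7.79 and the median length from 929 to 2216 bp. A fold of at least 4 gave a share of 82.4%, a median fold of 5.67 and 83.3% of peaks on genes without a PC3 peak (80.0% as reported). An FDR of at most 0.01 gave a median fold of 5.41. Asking for an overlap of 50% of both peaks gave a LNCaP-only share of 91.5% and 68.3% on genes without a PC3 peak, and counting PC3 peaks within 1000 bp as overlapping gave 75.2% and 84.1%. The share in the last part of the gene, 44.0%, became 49.8% with the downstream end of the peak and 40.4% with 1 peak per gene. Taking the gene on the peak's strand only, or leaving out peaks over 100000 bp, were alternatives chosen after the data were seen and moved no value beyond these limits. The unknown depth, the missing replicates and the PC3 list's stricter p limit bound every statement on absence from PC3.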

Other observations

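The 115 LNCaP-only peaks without a single gene had a median fold of 4.96, and 15 of them (13%) had a p within the range of the PC3 list. Of these peaks, 49 lay within 2 or more protein-coding genes and 66 within none whole: 40 of the 66 met a coding gene in part, 16 lay in another annotated gene and 10 in no annotated gene. The smallest p was at a 626 bp peak shared by the spans of ZIM2 and PEG3, imprinted zinc finger genes, at chr19:56813884-56814509 (fold 6.46, peak p 1.50e-12). Peaks that ran past the annotated span of their gene included SAFB2, a nuclear matrix RNA-binding protein gene (fold 8.84, 6592 bp), PNN, a splicing-associated gene (6.13, 2304 bp), and CASZ1, a zinc finger transcription factor gene (12.2, 35899 bp).

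Some LNCaP-only peaks lay opposite a peak of the other strand. A LNCaP peak on the other strand overlapped 108 LNCaP-only peaks (5.25%), while a PC3 peak on the other strand overlapped 9 (0.437%), among them peaks of CEP250, CSNK1D, MDC1, MYH10 and NUMA1. On MYH10, a nonmuscle myosin gene, these were peaks with folds of 9.82 (peak p 1.87e-10) and 9.49 (peak p 3.46e-06). Joining LNCaP-only peaks within 25 bp of each other left 1931 stretches, 356 on genes with a PC3 peak elsewhere and 1467 on genes without one.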
